A study of Mus musculus with 6 samples.

Results

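The mitochondrial respiratory chain was followed in the newborn mouse lens through 85 of the 12393 genes that had a probe set of their own on the array. A gene was taken when its symbol began with Ndufa, Ndufb, Ndufc, Ndufs, Ndufv, Uqcr, Cox4i, Cox5, Cox6, Cox7, Cox8 or Atp5, or was Sdha, Sdhb, Sdhc, Sdhd or Cyc1. These names covered 157 probe sets with a single gene, and the brightest probe set stood for each gene. Complexes I, II, III, IV and V held 39, 4, 9, 16 and 17 genes. Of the 85 genes, 79 encode structural subunits, and 6 (Ndufaf1, Ndufaf3, Ndufaf4, Ndufaf5, Ndufaf7 and Cox7a2l) are assembly or supercomplex factors taken in by name. A further 8 probe sets that several genes share were left out, so that Ndufb4, Ndufa11 and Ndufs6 had no value of their own, and none of the RNAs of the mitochondrial genome was among the measured genes.

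RNA came from the lenses of 1-day-old mice, with 3 wild type samples of NMRI background (WT) and 3 samples heterozygous for the Pax6 lacZ allele (Pax6 lacZ/+, Het), and each sample held the 2 lenses of 1 mouse. The values are microarray signals on a linear intensity scale, and a level in one probe set cannot be set against that in another, since probes differ in brightness. The lens is built of an epithelial sheet and of fiber cells, and whole lenses were taken, so fewer cells of a type and less RNA per cell cannot be told apart. The comparison asks which RNAs depend on the full dose of Pax6, a transcription factor of the eye, and the targeted gene itself gave signals of 1169, 1760.1 and 963 in WT 1 to 3 and 942, 1170.1 and 882 in Het 1 to 3. Of the lens markers, 10 of 11 for fibers and 9 of 10 for epithelium had a median signal of at least 100, while Sox1 (9.22) and Foxe3 (12.4) were at the level of background. Pax6 was lower in Het in all 3 same-numbered pairs, but the genotypes overlapped (log2 difference −0.34, SE 0.24, limma adjusted p = 1.00). Whether its probe set lies in the part of the gene replaced in the lacZ allele was not examined here.

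The respiratory chain sits in the inner mitochondrial membrane. Complexes I and II feed electrons from NADH and succinate to coenzyme Q, complex III passes them to cytochrome c, complex IV hands them to oxygen, and the proton gradient that complexes I, III and IV build drives ATP synthesis by complex V. Nearly all subunits are encoded in the nucleus, and NRF1 and the ETS factor GABP are known to bind the promoters of many of them. In the lens, mitochondria are kept in the epithelium and young outer fibers and are destroyed, with the other organelles, as fibers mature.

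Promoters of the genes were searched for the words of these factors, since they are sequence features that the choice of genes did not use. RefSeq promoter windows of GRCm38.p6, from 250 bases before to 50 bases after a gene's start, were at hand for 70 of the 85 genes (75 windows), and words were read on both strands. GCGCATGCG, the word of NRF1, was in 9 of the 75 windows (12%), in 1.75% of all 32851 windows and in 4.48% of the 4848 windows of genes whose median signal was at least 100. CCGGAAG, an ETS word, was in 18 windows (24.0%), in 8.86% of all windows and in 19.5% of those of the brighter genes. TTCACGC, part of the word of the Pax6 paired domain, was in 4 windows (5.33%), those of Cox7a2, Ndufc2, Sdhd and Uqcr11, against 1.26% and 1.98%. A word in a window does not show that a factor binds there. Atp5k, Atp5l, Cox6a1 and Uqcr11 had both the NRF1 and the ETS word, and their windows are printed because their RNAs reappear below with different courses over the samples. Capitals mark both words on either strand, and each window is read along the strand of its gene. In Uqcr11 the Pax6 word runs into the NRF1 word and shares its first bases.
Atp5k, subunit e of ATP synthase, GRCm38.p6 chr5:108434350-108434649, minus strand: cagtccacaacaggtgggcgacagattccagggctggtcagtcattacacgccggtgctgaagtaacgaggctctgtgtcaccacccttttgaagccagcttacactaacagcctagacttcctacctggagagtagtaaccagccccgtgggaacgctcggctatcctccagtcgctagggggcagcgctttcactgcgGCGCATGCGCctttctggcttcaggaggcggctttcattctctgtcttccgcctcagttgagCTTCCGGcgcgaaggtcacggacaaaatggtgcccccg
Atp5l, subunit g of ATP synthase, chr9:44920693-44920992, minus strand: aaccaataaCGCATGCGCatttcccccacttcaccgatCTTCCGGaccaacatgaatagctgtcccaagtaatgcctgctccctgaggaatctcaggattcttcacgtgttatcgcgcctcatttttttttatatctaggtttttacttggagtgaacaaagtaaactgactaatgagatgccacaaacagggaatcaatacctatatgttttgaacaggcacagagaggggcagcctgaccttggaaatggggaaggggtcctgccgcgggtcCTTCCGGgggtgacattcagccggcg
Cox6a1, the widely expressed subunit 6A of cytochrome oxidase, chr5:115348909-115349208, minus strand: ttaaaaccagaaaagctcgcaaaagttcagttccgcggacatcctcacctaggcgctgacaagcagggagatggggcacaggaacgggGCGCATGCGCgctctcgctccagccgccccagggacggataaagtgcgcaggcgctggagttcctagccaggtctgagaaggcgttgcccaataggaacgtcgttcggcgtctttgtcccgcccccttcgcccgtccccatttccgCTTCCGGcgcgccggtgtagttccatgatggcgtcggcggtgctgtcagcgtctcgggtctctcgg
Uqcr11, a small subunit of complex III, chr10:80406772-80407071, minus strand: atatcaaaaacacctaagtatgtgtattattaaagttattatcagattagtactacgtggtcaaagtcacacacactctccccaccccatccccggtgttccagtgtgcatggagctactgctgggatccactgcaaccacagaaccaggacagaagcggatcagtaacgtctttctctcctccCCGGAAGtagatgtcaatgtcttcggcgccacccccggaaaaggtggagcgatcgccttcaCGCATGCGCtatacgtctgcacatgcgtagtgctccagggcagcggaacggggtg

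No respiratory chain gene passed the test between the genotypes. With limma over all 22626 probe sets, 0 of the 85 genes had an adjusted p under 0.05 (background 0% of probe sets), and the adjusted p was 1.00 for each. At an unadjusted p under 0.05 the count was also 0 of 85, where 1.99% of all probe sets and 1.68% of those with a median signal of at least 100 were called. Blocking on replicate number left the count at 0 of 85, both adjusted (0.00884% of all probe sets) and unadjusted (9.03% of all and 10.2% of the brighter probe sets). The equal-variance test of the methods, run on the same log2 values, called 2 genes at an unadjusted p under 0.05 (2.94% of all probe sets), 3 at the methods' own threshold of 0.10 (5.86%) and 0 after Benjamini-Hochberg adjustment (0%). Those 3 were Ndufa1, Atp5j2 and Atp5g3, and they were also the only members whose WT and Het samples did not overlap, at 3 of 85 against 6.18% of all probe sets and 3.62% of the brighter ones.

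The differences were small on the log2 scale. The 85 differences, Het minus WT, ran from −0.31 (Ndufb1) to 0.28 (Ndufaf5) with a median of −0.02, and 38 (44.7%) were above 0. Over all probe sets the median was −0.01 with 46.5% above 0, and over the brighter probe sets it was −0.02 with 44.2% above 0. The median size of a difference, regardless of sign, was 0.063 for the members, 0.102 for all probe sets and 0.098 for the brighter ones. The 95% interval of the difference lay within a 2-fold change either way for 78 of the 85 genes and within 1.5-fold for 55, and with the replicate block within 2-fold for all 85 and within 1.5-fold for 81.

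**Figure D1:**
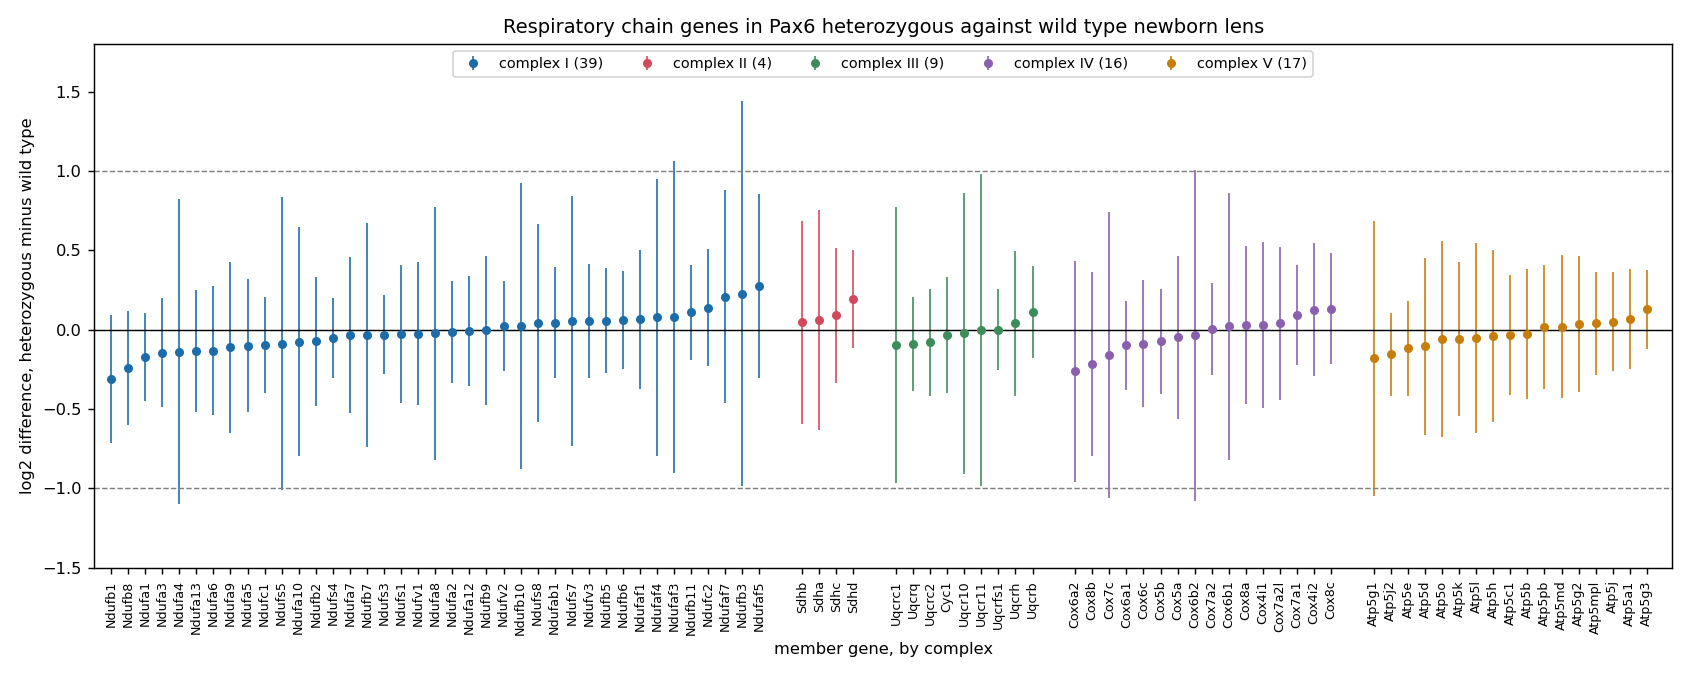
Log2 difference in signal, heterozygous minus wild type, for each of the 85 genes (x axis, ordered by difference within complexes I to V). Points are the limma estimates from 3 samples per genotype, bars their 95% intervals without the replicate block, and dashed lines a 2-fold change. Estimates run from −0.31 (Ndufb1) to 0.28 (Ndufaf5), and no interval lies wholly on one side of 0.

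Complex I takes electrons from NADH. Its 39 members had a median difference of −0.02, with 16 above 0 and 0 past any limma threshold. The 6 measured subunits of the catalytic core, which carry the flavin and iron-sulfur clusters or the quinone site (Ndufs1, Ndufs3, Ndufs7, Ndufs8, Ndufv1 and Ndufv2), kept within −0.03 and 0.05. The 28 accessory subunits ran from −0.31 to 0.23, with 8 above 0.

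The smallest p values of complex I belonged to 3 accessory subunits. For Ndufb1 the signal was 47.2, 54.8 and 47.6 in WT and 32.6, 41.7 and 47.3 in Het, in the order of replicates 1, 2 and 3. The Het sample of replicate 3 lay within the wild type range and the other two below it (log2 difference −0.31, 95% interval −0.72 to 0.09), and this probe set was dim. Ndufb8, a common marker of assembled complex I, had signals of 1635, 1708 and 1558 in WT and 1440.0, 1585 and 1154 in Het. Its genotypes overlapped in 1 sample (difference −0.24, interval −0.60 to 0.12).

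Ndufa1, an X-linked membrane subunit needed for assembly, was bright in every sample, at 5782, 6105 and 6309 in WT and 4956, 5503 and 5725 in Het. Each Het sample was below each WT sample. The difference of −0.17 (interval −0.45 to 0.11, mean ± SD 6065 ± 266 against 5395 ± 396, n = 3 each) did not pass limma's test (unadjusted p = 0.186, adjusted p = 1.00). Ndufa4, grouped here by its name although its protein was later placed in complex IV, differed mainly between replicate numbers, with 341, 638 and 353 in WT and 333, 658 and 262 in Het (difference −0.14, interval −1.10 to 0.82). Its sign turned without WT 2 or without Het 3.

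The 5 Ndufaf assembly factors were each above 0, from 0.06 (Ndufaf1) to 0.28 (Ndufaf5), with a median of 0.08. They were also among the dimmer members, with median signals from 57.9 to 164. Ndufaf5, which hydroxylates a core subunit during assembly, gave 67.3, 53.3 and 37.6 in WT and 62.5, 72.7 and 52.5 in Het, with overlap between genotypes. Ndufaf4 had a second probe set above a signal of 100, and the estimates were 0.08 and −0.29. Among the 54 further member probe sets with a median signal of at least 100, this gap to the probe set used was the widest. The shared sign of the 5 is thus not kept by every probe set.

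Complex II, succinate dehydrogenase, is shared with the citric acid cycle, and all 4 subunits were measured. All 4 differences were above 0, from 0.05 to 0.19 with a median of 0.08, and 0 of the 4 had an unadjusted limma p under 0.05. The median turned to −0.03 without Het 1 and was 0.22 without Het 3. Sdhd, a membrane anchor, had signals of 353, 445 and 398 in WT and 470.4, 429 and 462 in Het, so that 2 of the 3 Het samples were above all WT samples (difference 0.19, interval −0.12 to 0.51). Sdhc, the other anchor, gave 305, 323 and 329 and 410.1, 357 and 268, with Het samples on both sides of the WT range (difference 0.09).

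Sdha, the flavoprotein and a reference gene of the study, had 1218, 655 and 798 in WT and 1216, 740.2 and 807 in Het. Replicate 1 was the highest in both genotypes and replicate 2 the lowest, while the genotypes differed by 0.06 (interval −0.63 to 0.76). A second Sdha probe set ran the other way, at 488, 839.7 and 484 in WT and 505, 704 and 593 in Het, with replicate 2 the highest. The 2 probe sets had like genotype differences (0.06 and 0.03) and opposite courses over the replicate numbers. For Sdhb, the iron-sulfur subunit, the signals were 675, 1037 and 617 and 849, 956 and 587, again with replicate 2 at the top (difference 0.05).

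Complex III oxidizes coenzyme Q. The median of its 9 members was −0.02, with 3 above 0. The catalytic subunits Cyc1, which holds the heme of cytochrome c1, and Uqcrfs1, the Rieske iron-sulfur protein, differed by −0.04 and 0.00030, and the interval of Uqcrfs1 of −0.25 to 0.26 was among the narrow ones. Uqcrb, a quinone-binding subunit, gave 2725, 3256 and 2778 in WT and 3066, 3239.8 and 3142 in Het, with the 3 Het samples inside the WT range (difference 0.11).

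Uqcrq, a small membrane subunit, gave 1145, 1025 and 981 and 996, 1059 and 906, with overlap (difference −0.09, interval −0.39 to 0.21). The mean of all its probe sets had the other sign, at 0.02. For Uqcrc2, a core protein related to mitochondrial processing peptidases, signals were 3747, 3276 and 3228 in WT and 3719.6, 2921 and 3092 in Het. Het was lower in each of the 3 pairs, though the genotypes overlapped (difference −0.08, interval −0.42 to 0.26).

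Complex IV, cytochrome c oxidase, uses alternative subunits in different tissues, so its isoforms were followed one by one. The 16 members had a median difference of −0.02 and 8 were above 0, but only 10 of the 16 had a median signal of at least 100. The dim Cox8c, Cox7a1 and Cox4i2 were among the 8 above 0. Cox7c was also read from a dim probe set, with a median signal of 27.7 (difference −0.16). The widely expressed forms Cox4i1, Cox6a1, Cox6b1, Cox7a2 and Cox8a all had a median signal over 100. Cox7a2, the general form of a small membrane subunit, gave 10706, 9272 and 10379 in WT and 10773, 9432 and 10247 in Het, a difference of 0.01 (interval −0.28 to 0.29), and its sign depended on the scaling, being −0.02 after median centring. Cox4i1, the general form of a regulatory subunit, gave 2513, 3669.6 and 2573 and 2556, 3702 and 2665, higher in Het in each pair by less than the gap between replicate 2 and the others (difference 0.03, interval −0.49 to 0.55).

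Cox6b1, on the side where cytochrome c docks, gave 2516, 4102 and 2081 in WT and 2697, 4179 and 1987 in Het (difference 0.02, with −0.01 after median centring). Its replicate 2 samples were the highest of each genotype. Cox6a1 had 2651, 2411 and 2778 in WT and 2485, 2292 and 2541 in Het, lower in Het in each pair and lowest in replicate 2, but with overlap (difference −0.10). Cox8a, the general form of subunit 8, had 697, 793 and 554 and 674, 854 and 564 (difference 0.03).

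The isoforms known from heart and skeletal muscle were dim. Cox7a1 had a median signal of 11.2 and Cox8b of 9.69, where 33 probe sets of olfactory receptor genes, taken as a guide to background, had array medians of 9.65 to 11.0 and a highest median of 13.4. Cox8b gave 15.3, 7.87 and 11.7 in WT and 9.51, 9.51 and 9.88 in Het, and Cox7a1 10.2, 10.9 and 11.6 and 11.8, 12.8 and 10.3. At such signals no difference between the genotypes was detectable. The testis form Cox8c (12.7, 10.9 and 13.9 and 12.4, 15.2 and 13.5) was also at that level, with a median of 13.1. The hypoxia-linked lung form Cox4i2 (11.0, 15.5 and 14.4 and 16.3, 15.2 and 12.9) was dim, with a median of 14.8 just above the highest of the olfactory receptor probe sets.

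Cox6a2, the muscle form of subunit 6A, was above background at 70.5, 41.3 and 80.3 in WT and 50.6, 41.4 and 64.7 in Het. The genotypes overlapped (difference −0.26, interval −0.96 to 0.44), and the highest sample was WT 3. That sample also held muscle RNA: the 8 muscle markers summed to 529 in WT 3 and to 84.3 to 96.3 in the other 5 samples, with Mylpf, a myosin light chain, at 11.2, 16.0 and 158 in WT and 14.0, 15.9 and 11.4 in Het. Their part in the Cox6a2 signal was not tested, and its difference was −0.07 without WT 3, −0.55 without WT 2 and −0.16 without WT 1. Cox6b2, known from testis, was detected at 185, 138 and 75.3 in WT and 145, 170.0 and 71.8 in Het, with replicate 3 the lowest of each genotype (difference −0.04).

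Complex V, the ATP synthase, had 17 members with a median difference of −0.03, of which 7 were above 0. The F1 head subunits Atp5a1, Atp5b, Atp5c1, Atp5d and Atp5e ran from −0.12 to 0.07, and the peripheral stalk subunits Atp5pb, Atp5h, Atp5j and Atp5o from −0.06 to 0.05. Atp5a1, the alpha subunit of the F1 head, gave 5364, 4927 and 5646 in WT and 5235, 5206 and 6298 in Het (difference 0.07, interval −0.25 to 0.38). Atp5e, the epsilon subunit, gave 3813, 3750.5 and 3348 and 3683, 3241 and 3139, lower in Het in each pair with overlap between genotypes (difference −0.12).

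Atp5j2, the f subunit of the membrane part, had signals of 3557, 3478 and 3323 in WT and 3162, 3225 and 2915 in Het. All 3 Het samples were below all 3 WT samples, at 3101 ± 164 against 3453 ± 119 (mean ± SD, n = 3 each). The difference of −0.16 (interval −0.42 to 0.11) had an unadjusted limma p of 0.199 and an adjusted p of 1.00.

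The c ring that turns in the membrane is built of a protein encoded by 3 genes with the same mature product. Atp5g3 gave 4208, 4268 and 4176 in WT and 4431, 4736 and 4665 in Het, with every Het sample above every WT sample, at 4610.5 ± 159.6 against 4217 ± 46.9 (mean ± SD, n = 3 each; difference 0.13, interval −0.12 to 0.38). Atp5g1 gave 1371, 2252 and 1149.9 and 1044, 2132 and 1096, lower in Het in each pair while the genotypes overlapped widely (difference −0.18, interval −1.05 to 0.69). Atp5g2 gave 1571, 1292 and 1131 and 1499, 1458 and 1133 (difference 0.04). The estimates of the 3 genes thus lay on both sides of 0, and none passed the test.

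Samples with the same replicate number in the 2 genotypes went together far more than samples of the same genotype. For each gene the spread over the 6 samples was divided into a part between replicate numbers, a part between genotypes and the rest, and the median shares over the 85 members were 90.6%, 2.66% and 5.96%. Replicate number has 3 levels and genotype 2, so its share is on average the larger even where neither has an effect. Over all probe sets the median shares of replicate number and genotype were 64.6% and 7.68%, and over the brighter ones 83.1% and 4.95%. Replicate number held over 50% of the spread in 70 of the 85 members (82.4%), against 63.6% of all probe sets and 83.1% of the brighter ones. The sources used here do not say what the numbers share, and its cause was not tested.

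**Figure D2:**
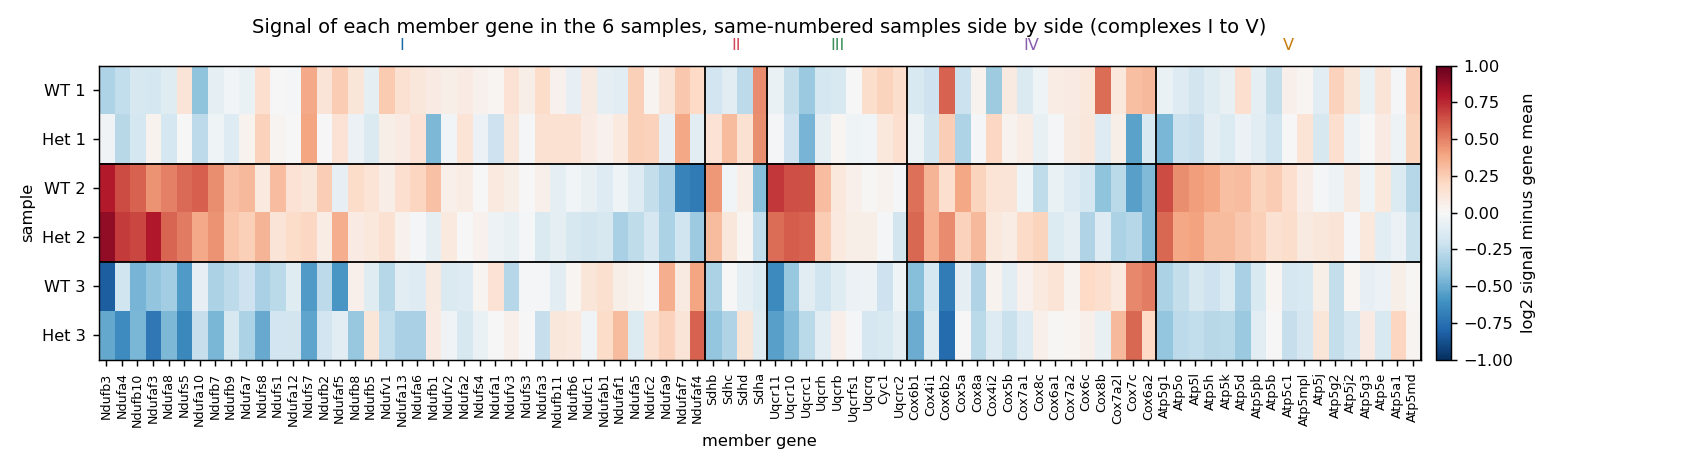
Log2 signal minus the gene's mean (color, −1 to 1) for the 85 genes (columns, ordered within complexes I to V by replicate 2) in the 6 samples (rows, same-numbered samples adjacent). Replicate number holds over 50% of the spread in 70 of the 85 columns (82.4%), against 63.6% of all probe sets and 83.1% of the brighter ones. Replicate 2 is the highest in both genotypes for 36 genes and replicate 3 the lowest for 40.

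The range of the 3 replicate-number means, each over 1 WT and 1 Het sample, had a median of 0.42 on the log2 scale and exceeded the size of the genotype difference in 78 of the 85 members (91.8%). A range over 3 means of 2 samples tends to exceed a difference between 2 means of 3 samples even without a replicate effect. The median range was 0.33 over all probe sets and 0.49 over the brighter ones, and 87.3% and 93.6% of them had a range above their genotype difference. The extremes were chosen after their values were seen. Ndufb3, an accessory subunit of complex I, had the widest range at 1.51, a 2.85-fold span, with signals of 371, 798 and 260.3 in WT and 449, 852 and 322 in Het. Uqcr11, whose promoter is shown above, had 437, 749 and 294 in WT and 452, 676 and 314 in Het, a range of 1.23 beside a genotype difference of −0.0017. At the other end stood Ndufs3, a core subunit of complex I, with 2838, 2713 and 2704 in WT and 2679, 2684 and 2718 in Het and a range of 0.03.

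**Figure D3:**
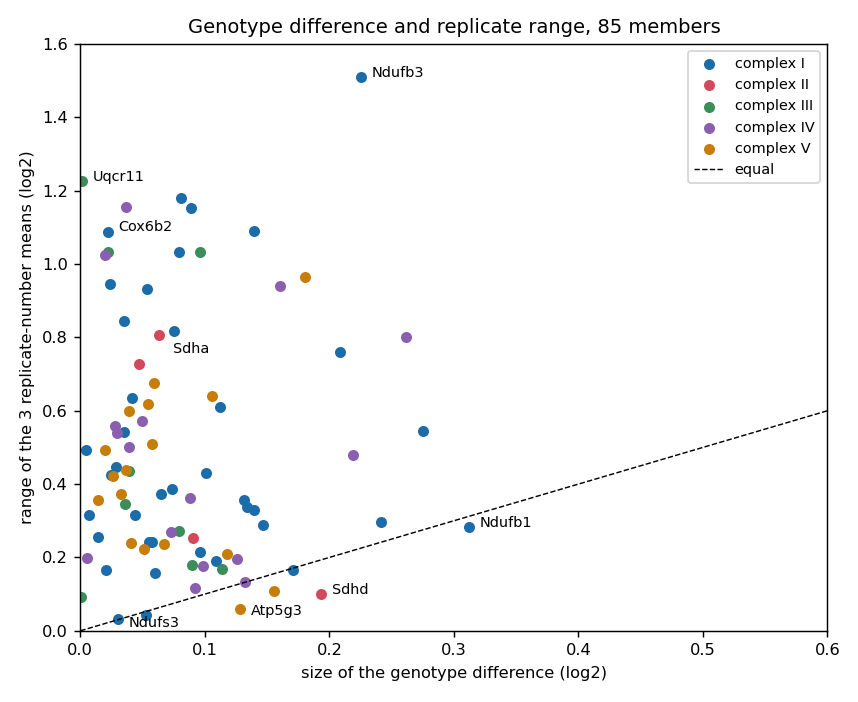
Size of the genotype difference (x axis, log2) against the range of the 3 replicate-number means (y axis, log2) for the 85 genes, colored by complex, with selected genes named. The dashed line marks equal sizes: 78 of 85 genes lie above it, Ndufb3 and Uqcr11 the farthest up, while Ndufb1, Sdhd and Atp5g3 lie below it. The range is above the genotype difference in 87.3% of all probe sets and 93.6% of the brighter ones.

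The members did not share 1 course over the numbers. Replicate 2 was the highest in both genotypes for 36 members and the lowest for 15, replicate 1 the highest for 15 and the lowest for 9, and replicate 3 the highest for 10 and the lowest for 40. Among the brighter probe sets as a whole, replicate 2 was the highest in 26.9% and the lowest in 32.3%, and replicate 3 the highest in 29.9% and the lowest in 17.1%. Of the genes with printed promoters, Atp5k (2274, 2941 and 2177 in WT and 2173, 2988 and 1990.5 in Het) and Atp5l (1808, 2742 and 1836 and 1742, 2703 and 1727) were highest in replicate 2, as was Uqcr11, whereas Cox6a1 was lowest there. In complex V, 10 of 17 members were highest in replicate 2, in complex III 6 of 9, in complex I 14 of 39, in complex IV 5 of 16 and in complex II 1 of 4.

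Several measures moved with the replicate numbers, and their part in this pattern was not tested. The ratio of the 3′ to the 5′ control probe set of Actb, a guide to RNA integrity and amplification length, was lowest in replicate 2, at 3.14, 2.11 and 3.17 in WT 1 to 3 and 3.11, 2.02 and 3.27 in Het 1 to 3. Its mean was 2.81 in WT and 2.80 in Het (n = 3 each). The summed signal of 11 lens fiber markers was 56629, 72862 and 63731 in WT and 56114, 71742 and 63612 in Het, and 7 of the 11 were highest in replicate 2 in both genotypes. By gene, 4 of the 11 differences were above 0 (median −0.07, lowest −0.56). In all 3 pairs 4 were higher and 4 lower, beside 15.4% and 22.1% of the brighter probe sets. At an unadjusted limma p under 0.05, 1 was lower without the block and 3 with it. Among all 22626 probe sets 229 and 1039 were lower at these settings. The 10 lens epithelium markers summed to 32263, 33934 and 35481 in WT and 29367, 32356 and 33769 in Het, lower in Het in each pair. Of these 10, 8 had a difference below 0 (median −0.18), and 7 were lower in all 3 pairs, beside 22.1% of the brighter probe sets. In the blocked limma fit 3 (Pax6, Cdh1 and Npnt) were lower at an unadjusted p under 0.05, and none without the block. Among all 22626 probe sets 1039 were lower in the blocked fit, and 9.03% were called in either direction. The counts include Pax6, which is the targeted gene itself, and the list includes Foxe3, which was at background. Endothelial markers were highest in replicate 1 for 8 of 11 genes and macrophage markers for 7 of 11, beside 16.7% of the brighter probe sets. Endothelial markers summed to 2056, 960 and 859 in WT and 3665, 1184 and 1116.5 in Het. Of these 11, 3 had a median signal of at least 100, and 10 were above 0 (median 0.42). In all 3 pairs 6 were higher (15.4% of the brighter probe sets). At a blocked unadjusted limma p under 0.05, 4 were higher, as were 1003 of all 22626 probe sets. Macrophage markers summed to 1515, 506 and 476 in WT and 1703, 1295 and 292 in Het. Of these 11, 3 had a median signal of at least 100, 10 were above 0 (median 0.32) and 2 were higher in all 3 pairs. In the blocked fit 3 were higher, beside the same 1003 of 22626 probe sets. Retina markers summed to 997 to 1147 in WT and 1340 to 2101 in Het, without overlap of the sums. Their median log2 deviations from the gene means did overlap, at −0.06, −0.22 and −0.19 in WT and −0.03, 0.61 and −0.08 in Het. Of the 12 markers 5 had a median signal of at least 100, and 10 were above 0 (median 0.44). Of these 12, 3 were higher and 1 lower at an unadjusted limma p under 0.05, beside 1.99% of all probe sets. With the block 4 were higher and 1 lower, beside 9.03%. The part of the fiber, epithelium, endothelial, macrophage and retina markers in the genotype differences was not tested.

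**Figure D4:**
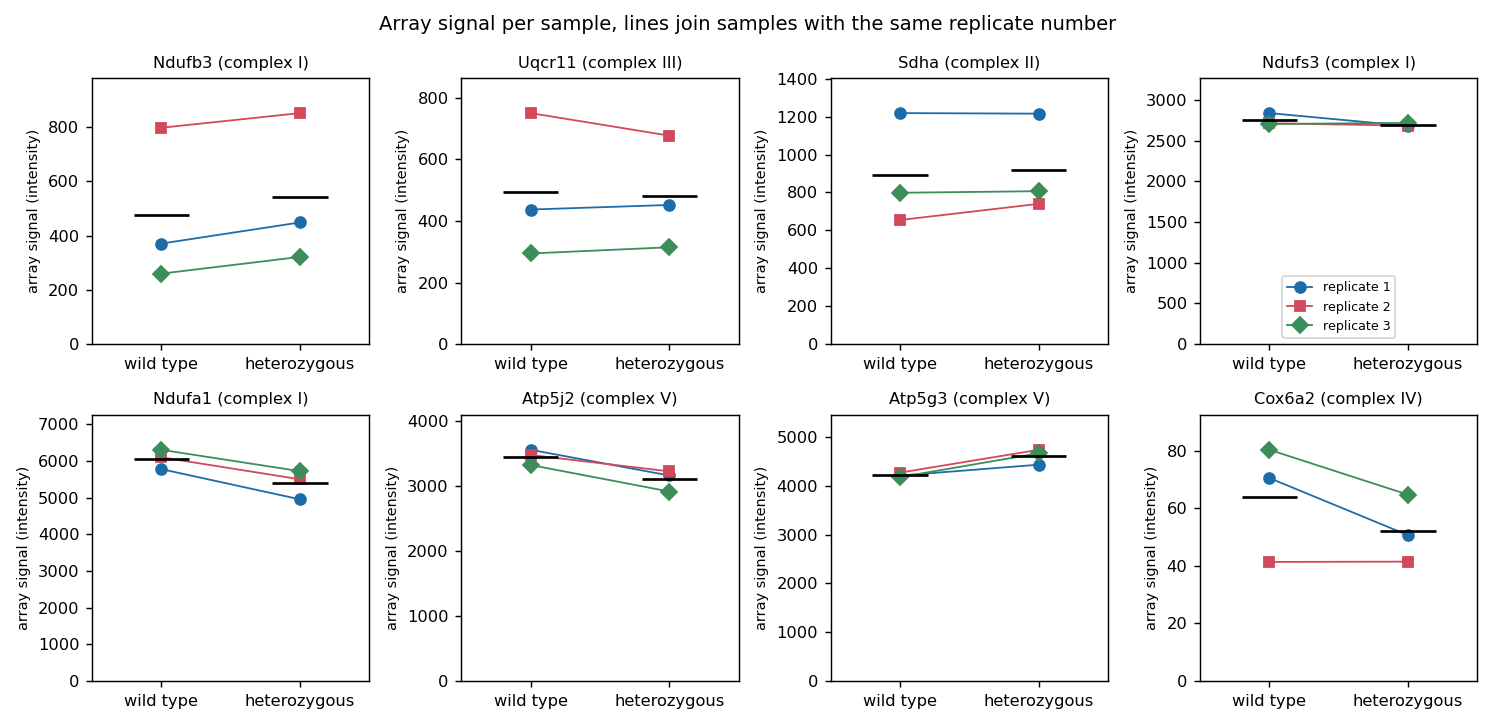
Array signal (y axis, linear intensity from 0) in each sample of 8 genes, with lines joining the WT and Het samples of one replicate number and black bars at the genotype means. Ndufb3 and Uqcr11 are highest in replicate 2, Sdha in replicate 1, Ndufs3 is level, and only Ndufa1, Atp5j2 and Atp5g3 show no overlap between genotypes.

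Read within the pairs, the median Het minus WT difference of the members was −0.03 in replicate 1, −0.02 in replicate 2 and −0.03 in replicate 3. Het was higher in all 3 pairs for 6 members (Ndufc2, Ndufaf7, Ndufb3, Ndufs7, Cox4i1 and Atp5g3), where 15.4% of the brighter probe sets did so, and lower in all 3 for 18, where 22.1% did. The lowest p with the replicate block was that of Ndufb1 (limma, unadjusted p = 0.0554, adjusted p = 0.570), followed by Ndufb3 and Ndufb8 at unadjusted p of 0.0693 and 0.0716.

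Other probe sets of the same genes gave a second reading. For 39 members there were 54 further probe sets with a median signal of at least 100, with differences from −0.29 to 0.13, and 0 of them had a limma p under 0.05. The median gap to the probe set used was 0.049. In replicate 2, 43 of the 54 deviated to the same side as the probe set used, and Sdha was among those that did not. The probe sets of 19 members have names ending in _s_at or _x_at, which mark probes that can also match other transcripts.

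The wider mitochondrial program was read from lists of nuclear genes. Of 74 genes of the mitochondrial ribosome, which makes the subunits encoded in the organelle, 28 were above 0 (median −0.02) and 0 had a limma p under 0.05. With the replicate block, 4 had an unadjusted p under 0.05, all lower in Het (Mrpl43, Mrpl50, Mrps23 and Mrps34), and none an adjusted one. That is 4 of 74 beside 9.03% of all and 10.2% of the brighter probe sets. Mrpl50 had the smallest p of the list without the block, with signals of 223, 242 and 269 in WT and 195, 193 and 226 in Het (difference −0.26). Of 15 genes of pyruvate dehydrogenase and the citric acid cycle 10 were above 0 (median 0.04), of 21 protein import genes 9 (−0.02), of 7 carriers and pores 4 (0.01) and of 13 genes that maintain and transcribe mitochondrial DNA 3 (−0.06), with 0 at a limma p under 0.05 in each list without the block. With it, Dld, the E3 subunit that pyruvate dehydrogenase shares with other complexes, and Slc25a11, the oxoglutarate carrier, each had an unadjusted p under 0.05 (differences −0.30 and −0.30), and none an adjusted one. These were 1 of 15 and 1 of 7 genes, again beside 9.03% of all and 10.2% of the brighter probe sets.

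Assembly genes outside the name rule were on both sides of 0, with 2 of 5 for complex I above 0, 3 of 8 for complexes II and III, 6 of 15 for complex IV and 0 of 2 for complex V, and 0 at a limma p under 0.05 without the block. With it, Tmem186 of complex I and Coa6 and Coa7 of complex IV assembly had an unadjusted p under 0.05 (differences −0.27, −0.33 and 0.27), and none an adjusted one. These were 1 of 5 and 2 of 15 genes, beside 9.03% of all and 10.2% of the brighter probe sets. Among 8 genes of coenzyme Q synthesis and cytochrome c, Coq3, a methyltransferase of coenzyme Q synthesis, had an unadjusted p of 0.0274, the only one of these mitochondrial lists under 0.05 without the block. Its signals were 18.5, 28.0 and 15.5 in WT and 31.4, 33.1 and 29.3 in Het, higher in each Het sample than in any WT sample but dim throughout (difference 0.64, SE 0.23, limma adjusted p = 1.00).

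Of 9 nuclear regulators of respiratory genes 3 were above 0 (median −0.06), and of 10 genes of mitochondrial removal 4 (−0.03), again with 0 at a limma p under 0.05. Gabpa, the DNA-binding part of GABP, gave 472, 333 and 531 in WT and 384, 327 and 504 in Het (difference −0.13). Nrf1 was dim, at 14.2, 20.4 and 22.2 and 49.8, 21.6 and 16.9. Bnip3, a receptor for the removal of mitochondria, gave 1874, 1191 and 959.5 and 1810.5, 806 and 789, with replicate 1 highest in both genotypes (difference −0.30).

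Other large complexes and the other energy pathway were set beside the members as a description. Of 42 cytosolic ribosomal proteins 26 were above 0 (median 0.01), of 39 genes with proteasome subunit names 12 (−0.05), and of 13 genes of glycolysis 9 (0.12), with 0 of each at a limma p under 0.05. Replicate 2 was the highest in both genotypes for 20 of the 42 ribosomal genes, 21 of the 39 proteasome genes, 45 of the 74 mitochondrial ribosome genes and 3 of the 13 genes of glycolysis. Differences between these lists were not tested.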

How the data were processed

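Total RNA of 6 samples was amplified with the NuGEN Ovation system and hybridized to Affymetrix mouse arrays. The deposited values are signal intensities on the linear scale that the authors made by robust multichip average (RMA), whose version is not given in the sources used here. RMA pulls ratios of dim probe sets toward 1. The arrays have no read depth, so their number limits the precision. Log2 values were used as deposited, and 64 control probe sets were left out. Of 22626 probe sets, 20380 had 1 gene, 691 several and 1555 none in the platform annotation, and all 85 members matched a RefSeq gene by Entrez number.

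Genotypes were compared, Het minus WT, with limma 3.58.1 (lmFit and eBayes, R 4.3.3), Benjamini-Hochberg adjustment over all probe sets and a threshold of 0.05. Steps were tested on simulated data. Tables and figures were made with Python 3.11.15, pandas 2.3.3, scipy 1.17.1 and matplotlib 3.10.9.

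The named genes were, per complex, the 3 with the smallest p and the brightest, with Sdha, tissue isoforms and at most 2 genes per pathway list. Others were chosen after their values were seen. The members and lists were chosen with earlier results of these data known, and subunit roles from general knowledge.

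Same-numbered samples were read as pairs, since their deviations from the genotype means correlated at 0.645, 0.734 and 0.604 over all probe sets. Those of different numbers correlated at −0.0751 to −0.496. The deviations of a genotype sum to 0 over its 3 samples, so these negative values follow from the positive ones and add no separate evidence. Alternatives were median centring, quantile normalization, filters on dim probe sets, an intensity trend, array weights, the replicate block, the equal-variance test of the methods, other choices of probe set or member, and leaving out each sample.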

Additional observations from a re-analysis of the deposited data

How the results depend on the processing

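No member was called under any of 18 alternatives, and the 27 named genes had 0 of 373 alternative values past the threshold, with 337 of the same sign and 36 reversed. With the replicate block 2 probe sets of the whole array, no member among them, had an adjusted p under 0.05, and no call of a member changed. The unadjusted count of members was 2 with the equal-variance test of the methods, and 0 to 2 when single samples were left out. Leaving out single samples moved the number of members above 0 between 24 (without WT 3) and 56, the median of all members between −0.10 and 0.06, and those of complexes I, II, III, IV and V between −0.11 and 0.06, −0.030 and 0.22, −0.14 and 0.19 (without WT 2), −0.083 and 0.031, and −0.13 and 0.077. Median centring gave Cox6b1 −0.0053 and Cox7a2 −0.020, quantile normalization gave Cox7a2 −0.019, and array weights gave Cox7a2 −0.0026. The mean of all probe sets gave Uqcrq 0.017, Cox8a −0.0020, Cox6b1 −0.0091, Cox7a2 −0.026 and Atp5g2 −0.027. The cause of these reversals was not tested.

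When single samples were left out the sign turned for these named genes, with ranges of −0.52 to 0.15 for Ndufa4, −0.046 to 0.26 for Sdhc, −0.15 to 0.31 for Sdha, −0.47 to 0.0060 for Cox8b, −0.021 to 0.23 for Cox4i2, −0.13 to 0.17 for Cox8a, −0.14 to 0.21 for Cox4i1, −0.40 to 0.34 for Cox6b2, −0.26 to 0.30 for Cox6b1, −0.057 to 0.057 for Cox7a2, −0.023 to 0.11 for Atp5a1, −0.51 to 0.10 for Atp5g1 and −0.075 to 0.16 for Atp5g2. The 13 named genes that kept their sign in every setting include Ndufb8, Ndufa1, Sdhd, Atp5j2 and Atp5g3. A restriction to members with a median signal of at least 100, chosen after seeing the data, left 77 members with a median of −0.02. Signals near background, as for 3 isoforms of complex IV, set a limit that no setting removes.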
